A study of Rattus norvegicus with 62 samples.

Results

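The subject is how the response of the injured ganglion to chronic constriction injury (CCI) differed in male rats between 5 weeks and 1 week after the operation. CCI, in which loose ligatures are tied round the sciatic nerve, is a rat model of neuropathic pain. Poly-A RNA of the L4 dorsal root ganglion (DRG) was counted per gene on the injured, ipsilateral side (IL) and on the opposite, contralateral side (CL). The comparison took 24 of the study's 62 libraries: 5 IL and 5 CL libraries of males at 5 weeks, and 7 IL and 7 CL libraries of males at 1 week. The members were chosen by their labels alone. All animals of these groups had CCI on one side. There was no sham or unoperated group among them, so the CL ganglion was the only control, and strain and age are not given in the sources used here. Libraries of both sides that carry the same replicate number were taken as a pair. The injury response of a gene is its IL minus CL difference on the log2 scale, and the shift is the response at 5 weeks minus the response at 1 week. A negative shift of a gene that was higher on the injured side therefore means that the difference between the sides was smaller at 5 weeks.

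The DRG holds the cell bodies of sensory neurons, wrapped by satellite glia, together with Schwann cells, vessels, fibroblasts and resident macrophages. When its axon is damaged, a sensory neuron switches on growth and stress genes, among them Atf3 and Gap43, and turns down many ion channel and transmitter genes. Macrophages gather round injured cell bodies, and satellite glia change their channels and enzymes. Each library is a whole ganglion, so fewer cells of a type and less RNA per cell cannot be told apart.

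The IL libraries held 18881575 to 24356629 counts each at 5 weeks and 26603565 to 32163272 at 1 week, and the CL libraries 19380069 to 23235355 at 5 weeks and 24572869 to 33495439 at 1 week. By a chi-square test of counts over genes, no pair of libraries within a group agreed within sampling noise. All 11 pan-neuronal markers were counted in these libraries, with a summed level of 13723 to 19632 CPM (depth-scaled counts) per library. Hemoglobin genes took a median of 0.107% of counts in IL and 0.0895% in CL libraries at 5 weeks, against 0.0995% in IL and 0.0327% in CL libraries at 1 week. The 1 week CL libraries were thus the low ones in blood RNA. The labels do not tie the libraries to separate animals, so the p-values measure the spread between these samples.

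Most genes that differed between the sides at 5 weeks also did so at 1 week. Of 18980 genes tested, 7780 (41%; 19.1% higher and 21.9% lower) differed between the sides at 5 weeks and 10231 (53.9%; 27.3% higher and 26.6% lower) at 1 week, by edgeR's quasi-likelihood test with the pair as a block and a Benjamini-Hochberg adjusted p under 0.05. Of the genes called at 5 weeks, 83.9% were called in the same direction at 1 week, and of those called at 1 week, 63.8% were called in the same direction at 5 weeks. The response at 1 week rests on 7 pairs of deeper libraries and that at 5 weeks on 5 pairs. Counts of calls at the 2 weeks, here and below, therefore do not have equal power. A lower count at 5 weeks does not by itself show smaller responses. For 5497 genes called in the same direction at both weeks, the 95% interval of the shift lay within 1.5-fold. These genes are described as held. Of the held genes, 92 also had a called shift, so that a small shift could be called within those bounds; Stat3, Omg, Csdc2, Gfra3 and Aars1, described below with the genes that faded or grew, are among them.

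The shift itself was called for 497 genes (2.62%), 167 higher and 330 lower, and 3067 genes had an unadjusted p under 0.05. Of the called genes, 268 were risers at 1 week whose rise was smaller or absent at 5 weeks, and 77 were fallers whose fall was smaller or absent. A rise was larger at 5 weeks for 64 genes and a fall was larger for 38 genes. In all, 54 genes were called in opposite directions at the 2 weeks. The number of called shifts was sensitive to the fit: it was 40 without the pair as a block and 63 with the hemoglobin share as a covariate. It was 293 without pair 1 and 319 without pair 4 of the 1 week libraries, and 218 without pair 2 and 248 without pair 3 of the 5 week ones. None of the 44 examined genes with a called shift changed the sign of its shift under any of 20 alternatives. Of these 44, only 10 were still called without the pair block and 19 with the hemoglobin covariate. With the ribosomal RNA covariate 41 were still called. Limits given below for single genes mostly concern left-out pairs alone. Shifts that were not called could take either sign: with the hemoglobin covariate that of Ecel1 was 0.12 and that of Sprr1a was 1.52.

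**Figure D1:**
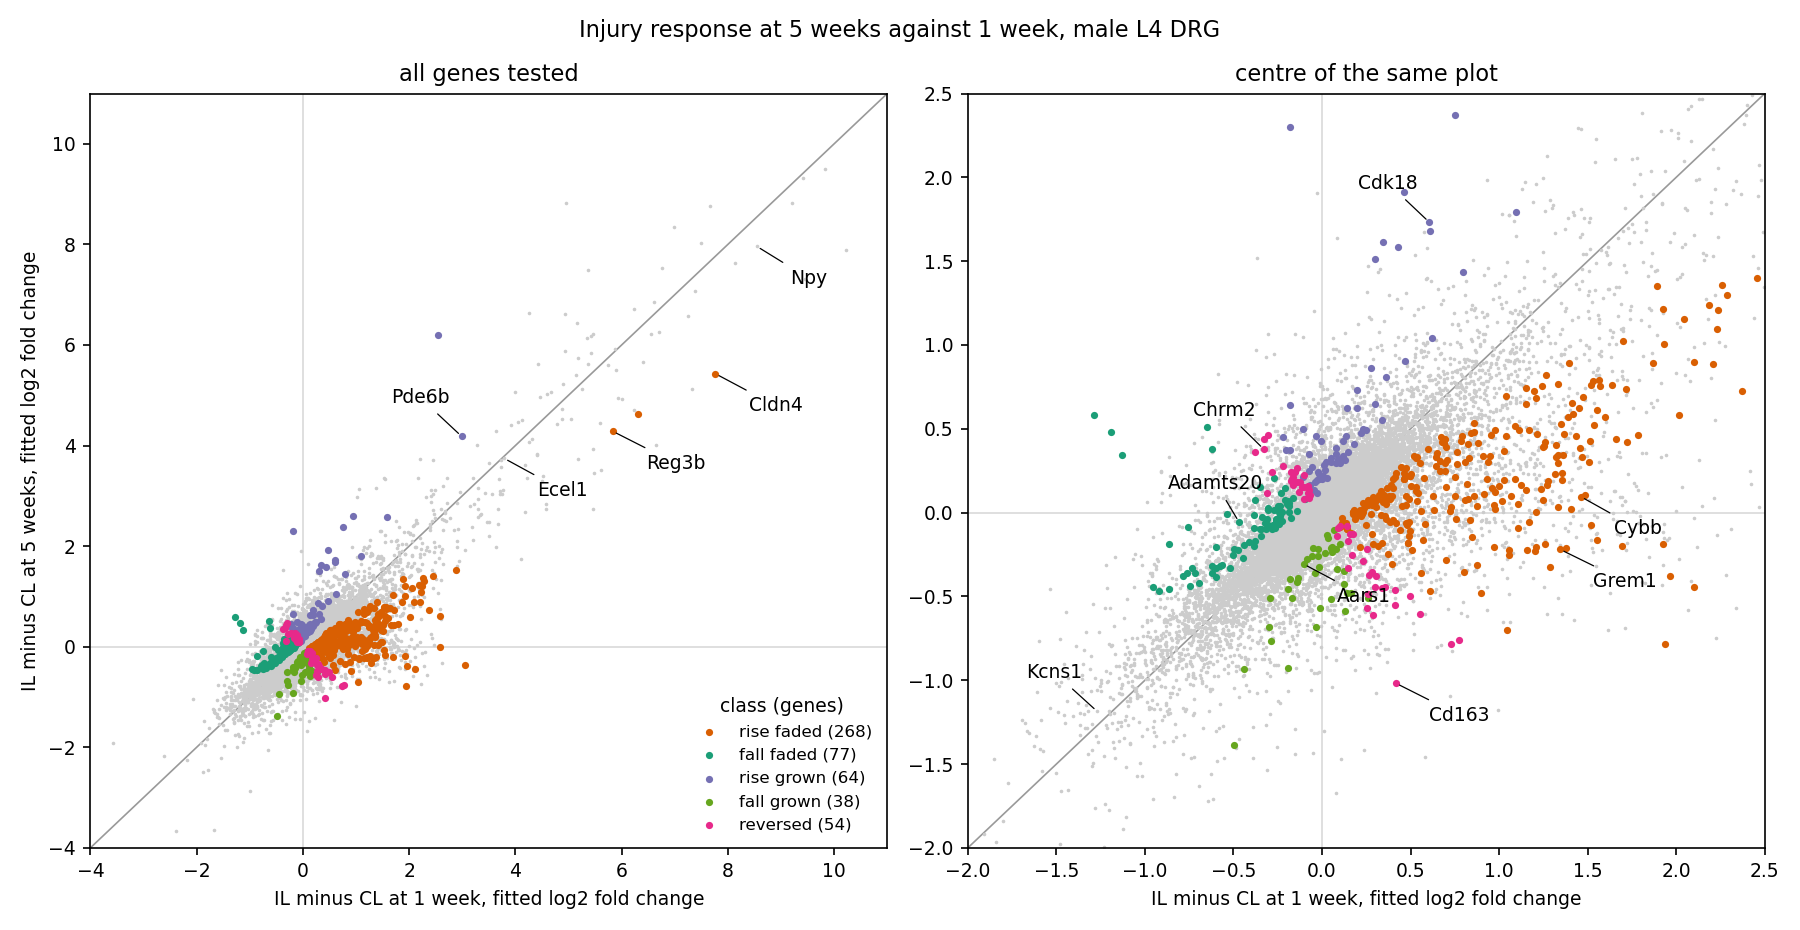
Fitted log2 response (IL minus CL) of each gene at 5 weeks (vertical) against 1 week (horizontal), for all genes tested (left) and the centre of the plot (right), with classes in colour and the diagonal marking equal responses. Rises that faded (268 genes) lie below the diagonal on the right-hand side, and rises that grew (64 genes) lie above it.

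Neuronal injury genes were called in similar numbers at both weeks. Of 48 listed nerve injury genes, 42 were higher and 2 lower at 5 weeks, against 44 higher and 1 lower at 1 week, where 19.1% and 27.3% of all genes were higher at 5 weeks and 1 week. Of the 48, 15 were held, and 5 had a called shift, 2 higher and 3 lower (10.4%, against 2.62% of all genes). Of 27 growth cone and cytoskeleton genes, 21 were higher and 4 lower at 5 weeks, against 21 higher and 5 lower at 1 week, 25 were held, against 29% of all genes, and none had a called shift. At 5 weeks Ecel1 had 31.4, 52.1, 42.4, 67.6 and 42.2 CPM in IL ganglia, against 2.72, 4.39, 4.13, 3.22 and 2.75 CPM in CL ganglia. At 1 week Ecel1 had 27 to 43.9 CPM (median 29.8) in IL ganglia, against 1.68 to 3.15 CPM (median 2.29) in CL ganglia. Ecel1 differed between sides by 3.49, 3.54, 3.34, 4.36 and 3.90 on the log2 scale in the 5 pairs at 5 weeks, and by 3.09 to 4.07 (median 3.93) in the 7 pairs at 1 week. Pairs of Ecel1 from the 2 weeks overlapped. Ecel1 encodes a membrane peptidase that is induced by axon injury, and its shift was -0.04 (SE 0.196, adjusted p = 0.961). The IL libraries of both weeks were all far above the CL libraries.

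Other rises were held as well. Sox11, a transcription factor of axon regeneration, had responses of 3.07 at 5 weeks and 2.96 at 1 week. Flrt3, an adhesion protein, had responses of 2.5 at 5 weeks and 2.69 at 1 week. Stmn4, a microtubule regulator, had 2.43 and 2.40 in the same order, and Sema6a, a guidance molecule, had 2.32 and 2.38. The largest adjusted p of these 8 responses was 3.95e-07. Atf3 and Sprr1a were called higher at both weeks but were not held, since the interval of their shift reached past 1.5-fold. Atf3, the injury-induced transcription factor that checks the labels, had responses of 4.43 at 5 weeks and 4.79 at 1 week. Sprr1a, an injury-induced protein, had 2.78, 5.58, 4.60, 6.78 and 6.83 CPM in IL ganglia at 5 weeks and 4.60 to 8.75 CPM (median 6.51) in IL ganglia at 1 week.

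Losses of channel genes also held. Of 43 potassium channel genes, 31 were lower and 2 higher at 5 weeks, against 31 lower and 3 higher at 1 week, 30 were held, and 1 had a called shift. Over all genes, 21.9% were lower at 5 weeks, 26.6% were lower at 1 week and 29% were held. The called shift is 2.33% of the list, close to the 2.62% of all genes. At 5 weeks Kcns1 had 38.3, 53.5, 52.6, 41.6 and 41 CPM in IL ganglia, against 81.4, 112, 106, 106 and 109.8 CPM in CL ganglia. At 1 week Kcns1 had 32.9 to 66.9 CPM (median 38.2) in IL ganglia, against 95 to 109.8 CPM (median 96.2) in CL ganglia. Kcns1 differed between sides by -1.08, -1.07, -1.01, -1.35 and -1.42 on the log2 scale in the 5 pairs at 5 weeks, and by -1.54 to -0.71 (median -1.33) in the 7 pairs at 1 week. Pairs of Kcns1 from the 2 weeks overlapped. Kcns1 encodes a modulatory potassium channel subunit of large sensory neurons. Kcns3, its relative, had responses of -1.28 at 5 weeks and -1.34 at 1 week. Trpm6, a magnesium channel, had -1.55 at 5 weeks and -1.50 at 1 week, and Hapln4, a perineuronal matrix link protein, had -1.18 and -1.32 in the same order. Of 52 sensory receptor genes, 36 were lower at 5 weeks and 38 at 1 week. Of 54 cytosolic ribosomal protein genes, 53 were higher at 5 weeks and 52 at 1 week. Of 56 nuclear oxidative phosphorylation genes, 38 were lower at 5 weeks and 46 at 1 week, with median responses of -0.166 and -0.191. Neither of these 2 lists had a called shift.

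Some neuropeptide and growth factor genes had lower responses at 5 weeks, with shifts that missed the threshold. None of 23 neuropeptide genes had a called shift, and the estimate was negative for 15 and positive for 8. The median response of that list was 1.06 at 5 weeks and 0.331 at 1 week. Adcyap1, which encodes the neuropeptide PACAP, had a shift of -0.61 (SE 0.153, adjusted p = 0.0638). Bdnf, a neurotrophin, had a shift of -0.50 (SE 0.134, adjusted p = 0.0685). Csf1, a macrophage growth factor made by injured sensory neurons, had a shift of -0.41 (SE 0.106, adjusted p = 0.0572). Calca, which encodes the peptide CGRP, had responses of -0.35 at 5 weeks and 0.28 at 1 week, with adjusted p values of 0.0472 and 0.045, and its shift was -0.63 (SE 0.167, adjusted p = 0.078). The Calca response was not called at 5 weeks in 11 of 12 fits without a pair, nor at 1 week in 7 of them.

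Among the rises that faded, Grem1, an antagonist of bone morphogenetic proteins (chromosome 3, 100512317 to 100524001, mRatBN7.2), was no longer called at 5 weeks. At 5 weeks Grem1 had 2.89, 2.97, 2.41, 2.87 and 3.23 CPM in IL ganglia, against 2.92, 3.53, 3.11, 3.91 and 3.26 CPM in CL ganglia. At 1 week Grem1 had 5.10 to 10.9 CPM (median 8.97) in IL ganglia, against 2.46 to 4.06 CPM (median 3.43) in CL ganglia. Only the IL ganglia at 1 week stood above the other 3 groups. Grem1 differed between sides by -0.02, -0.24, -0.36, -0.44 and -0.01 on the log2 scale in the 5 pairs at 5 weeks, and by 0.58 to 1.67 (median 1.44) in the 7 pairs at 1 week. For Grem1 the side difference was lower in all 5 pairs at 5 weeks than in any pair at 1 week. The response was -0.22 (SE 0.145, adjusted p = 0.249) at 5 weeks and 1.34 (SE 0.104, adjusted p = 6.00e-09) at 1 week, and the shift was -1.56 (SE 0.179, adjusted p = 1.93e-04).

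Smaller faded rises were also called. Plaur, the urokinase receptor, had a shift of -0.47 (SE 0.0919, adjusted p = 0.0112). Stat3, a cytokine-activated transcription factor, had responses of 0.24 at 5 weeks and 0.46 at 1 week and a shift of -0.22 (SE 0.0403, adjusted p = 0.00741).

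Reg3b, a secreted lectin induced in injured neurons, stayed high. At 5 weeks Reg3b had 8.09, 22.6, 25.9, 44.5 and 21.3 CPM in IL ganglia, against 0.644, 0.818, 1.25, 1.48 and 1.91 CPM in CL ganglia. At 1 week Reg3b had 36.4 to 68.1 CPM (median 42.8) in IL ganglia, against 0.455 to 1.16 CPM (median 0.842) in CL ganglia. Reg3b differed between sides by 3.50, 4.66, 4.29, 4.84 and 3.43 on the log2 scale in the 5 pairs at 5 weeks, and by 5.01 to 6.33 (median 5.78) in the 7 pairs at 1 week. For Reg3b the side difference was lower in all 5 pairs at 5 weeks than in any pair at 1 week. Its shift was -1.54 (SE 0.303, adjusted p = 0.0184) and was not called without pair 3 of the 5 week libraries (adjusted p = 0.0539). Nor was it called without the pair block (adjusted p = 0.331) or with the hemoglobin covariate (adjusted p = 0.136). Cldn4, a tight junction protein, had 8.40, 10.8, 6.09, 14 and 11.2 CPM in IL ganglia at 5 weeks and 9.49 to 24.4 CPM (median 16.1) in IL ganglia at 1 week. In CL ganglia Cldn4 had 0.198, 0.344, 0.232, 0.264 and 0.0931 CPM at 5 weeks and 0 to 0.188 CPM (median 0.0413) at 1 week, close to no counts, so no fold is given. Slc7a5, an amino acid transporter, had a shift of -0.28 (SE 0.0562, adjusted p = 0.0123), which was not called without pair 3 of the 5 week libraries (adjusted p = 0.0517). Its difference between weeks was -0.08 on the IL side, not called, and 0.20 on the CL side, called.

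Leukocyte genes were among the rises that faded. Of 40 macrophage markers, 22 were higher and 2 lower at 5 weeks, against 38 higher and none lower at 1 week, and 15 had a called negative shift against 1.74% of all genes. Their median shift was -0.712. On the IL side the median difference between weeks was -0.353, and on the CL side it was 0.342. No macrophage marker had a called shift without the pair block, 3 had one with the hemoglobin covariate, and 7 had one without pair 2 or without pair 3 of the 5 week libraries, or 9 without pair 5 of the 1 week ones. Summed over 6 defining macrophage markers, the median level was 128 CPM in IL and 78.6 CPM in CL ganglia at 5 weeks, against 168 CPM in IL and 58.3 CPM in CL ganglia at 1 week. The median side difference over the 11 pan-neuronal markers was -0.15 to 0.07 in the pairs at 5 weeks, against -0.39 to -0.13 in the pairs at 1 week, and its part in these shifts was not tested.

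Cybb, the catalytic subunit of the phagocyte NADPH oxidase (chromosome X, 13360583 to 13392517), was higher on the injured side at 1 week and not called at 5 weeks. At 5 weeks Cybb had 9.43, 7.27, 4.56, 6.99 and 5.70 CPM in IL ganglia, against 5.70, 6.89, 6.17, 6.34 and 6.01 CPM in CL ganglia. At 1 week Cybb had 4.79 to 12.6 CPM (median 7.48) in IL ganglia, against 1.65 to 4.05 CPM (median 2.56) in CL ganglia. Cybb differed between sides by 0.72, 0.08, -0.43, 0.14 and -0.08 on the log2 scale in the 5 pairs at 5 weeks, and by 0.99 to 1.75 (median 1.52) in the 7 pairs at 1 week. For Cybb the side difference was lower in all 5 pairs at 5 weeks than in any pair at 1 week. The response was 0.10 (SE 0.131, adjusted p = 0.605) at 5 weeks and 1.46 (SE 0.115, adjusted p = 8.10e-09) at 1 week, with a shift of -1.37 (SE 0.174, adjusted p = 6.67e-04). Between weeks Cybb was -0.20 on the IL side, which was not called, and 1.16 on the CL side, which was called.

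Further myeloid genes had called negative shifts. At 5 weeks Itgam had 7.93, 6.47, 4.73, 7.78 and 6.91 CPM in IL ganglia, against 6.09, 5.17, 5.94, 4.44 and 3.59 CPM in CL ganglia. At 1 week Itgam had 5.32 to 17.4 CPM (median 9.92) in IL ganglia, against 0.988 to 4.71 CPM (median 3.02) in CL ganglia. For Itgam the side difference was lower in all 5 pairs at 5 weeks than in any pair at 1 week. Itgam, the integrin CD11b, had a shift of -1.30 (SE 0.223, adjusted p = 0.00832). Sla, an adaptor of leukocyte receptor signalling, had a shift of -1.38 (SE 0.212, adjusted p = 0.0027). Alox5, a lipoxygenase of leukotriene synthesis, had a shift of -1.38 (SE 0.258, adjusted p = 0.00993). On the IL side the difference between weeks was -0.37 for Sla and -0.53 for Alox5, and neither was called. On the CL side it was 1.03 for Sla and 0.85 for Alox5, and both were called. C5ar1, a complement receptor, had a shift of -0.93 (SE 0.190, adjusted p = 0.0143) that was not called without pair 2 of the 5 week libraries (adjusted p = 0.0585). At 5 weeks Spp1 had 727, 1145, 963, 1038 and 1023 CPM in IL ganglia, against 721, 1011, 886, 941 and 827 CPM in CL ganglia. At 1 week Spp1 had 1260 to 1606 CPM (median 1422) in IL ganglia, against 805 to 1012 CPM (median 841) in CL ganglia. Spp1 differed between sides by 0.01, 0.18, 0.12, 0.14 and 0.31 on the log2 scale in the 5 pairs at 5 weeks, and by 0.52 to 0.79 (median 0.73) in the 7 pairs at 1 week. For Spp1 the side difference was lower in all 5 pairs at 5 weeks than in any pair at 1 week. Spp1, osteopontin, which large sensory neurons also express, had a shift of -0.55 (SE 0.0539, adjusted p = 4.66e-05), and it was -0.53 on the IL and 0.01 on the CL side between weeks. Of 25 complement genes, 10 were higher and 1 lower at 5 weeks, against 21 higher and 1 lower at 1 week. Of the complement genes 5 had a called negative shift (20%, against 1.74% of all genes). The number was 1 to 9 when single pairs were left out and 16 by DESeq2. No complement gene had one without the pair block or with the hemoglobin covariate. Of 30 cytokine and chemokine genes, 2 had a called shift, both negative (6.67%, against 1.74% of all genes). Cxcl16 had a shift of -0.53 (SE 0.0986, adjusted p = 0.00993). Ccl2, a monocyte attractant, had a shift of -0.68 (SE 0.134, adjusted p = 0.015), not called without pair 2 (adjusted p = 0.0637) or pair 4 (adjusted p = 0.0526) of the 5 week libraries.

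Erythrocyte genes had a median response of 0.0478 at 5 weeks and 1.68 at 1 week. Whether blood RNA followed the leukocyte genes from pair to pair was not tested. At 5 weeks Hbb had 191, 102, 143, 207 and 404 CPM in IL ganglia, against 236, 91.5, 369, 176 and 167 CPM in CL ganglia. At 1 week Hbb had 103 to 389.9 CPM (median 177) in IL ganglia, against 23 to 148 CPM (median 51.1) in CL ganglia. Hbb differed between sides by -0.30, 0.16, -1.36, 0.24 and 1.27 on the log2 scale in the 5 pairs at 5 weeks, and by 0.75 to 3.60 (median 2.00) in the 7 pairs at 1 week. Pairs of Hbb from the 2 weeks overlapped. Hbb, a hemoglobin chain, had a shift of -1.77 (SE 0.591, adjusted p = 0.162). None of 18 erythrocyte genes differed between the sides at 5 weeks, against 17 higher at 1 week, and no shift was called. Of 24 neutrophil, mast cell and marrow genes, 1 was higher at 5 weeks and 17 at 1 week, with a median shift of -1.62. A negative shift was called for 1 of them (4.17%, against 1.74% of all genes). Their part in the shift of the macrophage genes was not tested beyond the fit with the hemoglobin share. With that covariate 2 of the 8 leukocyte genes named above with a called shift were still called, Cybb at -1.19 (adjusted p = 0.0354) and Spp1 at -0.52 (adjusted p = 0.00356). The shift was then -0.99 for Itgam, -0.92 for Sla, -0.71 for Alox5, -0.75 for C5ar1, -0.59 for Cxcl16 and -0.65 for Ccl2, with adjusted p values of 0.0674 to 0.236. Of the genes still called, Spp1 is also on the list of sensory neuron subtype markers. Unlike Cybb, it differed between weeks on the IL side (-0.53) and not on the CL side (0.01). Which cells carried its shift was not tested. Of 11 MHC class II genes, 10 were higher at 5 weeks and all 11 at 1 week. A negative shift was called for 2 of them (18.2%, against 1.74% of all genes), and for none without some single pairs. RT1-Da, a member of this list whose shift was not called, had a shift of -0.74 (SE 0.222, adjusted p = 0.121). Of 22 lymphocyte genes, 4 were higher and 2 lower at 5 weeks, against 15 higher and none lower at 1 week, with no called shift. The share higher at 5 weeks was near that of all genes (19.1%).

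**Figure D2:**
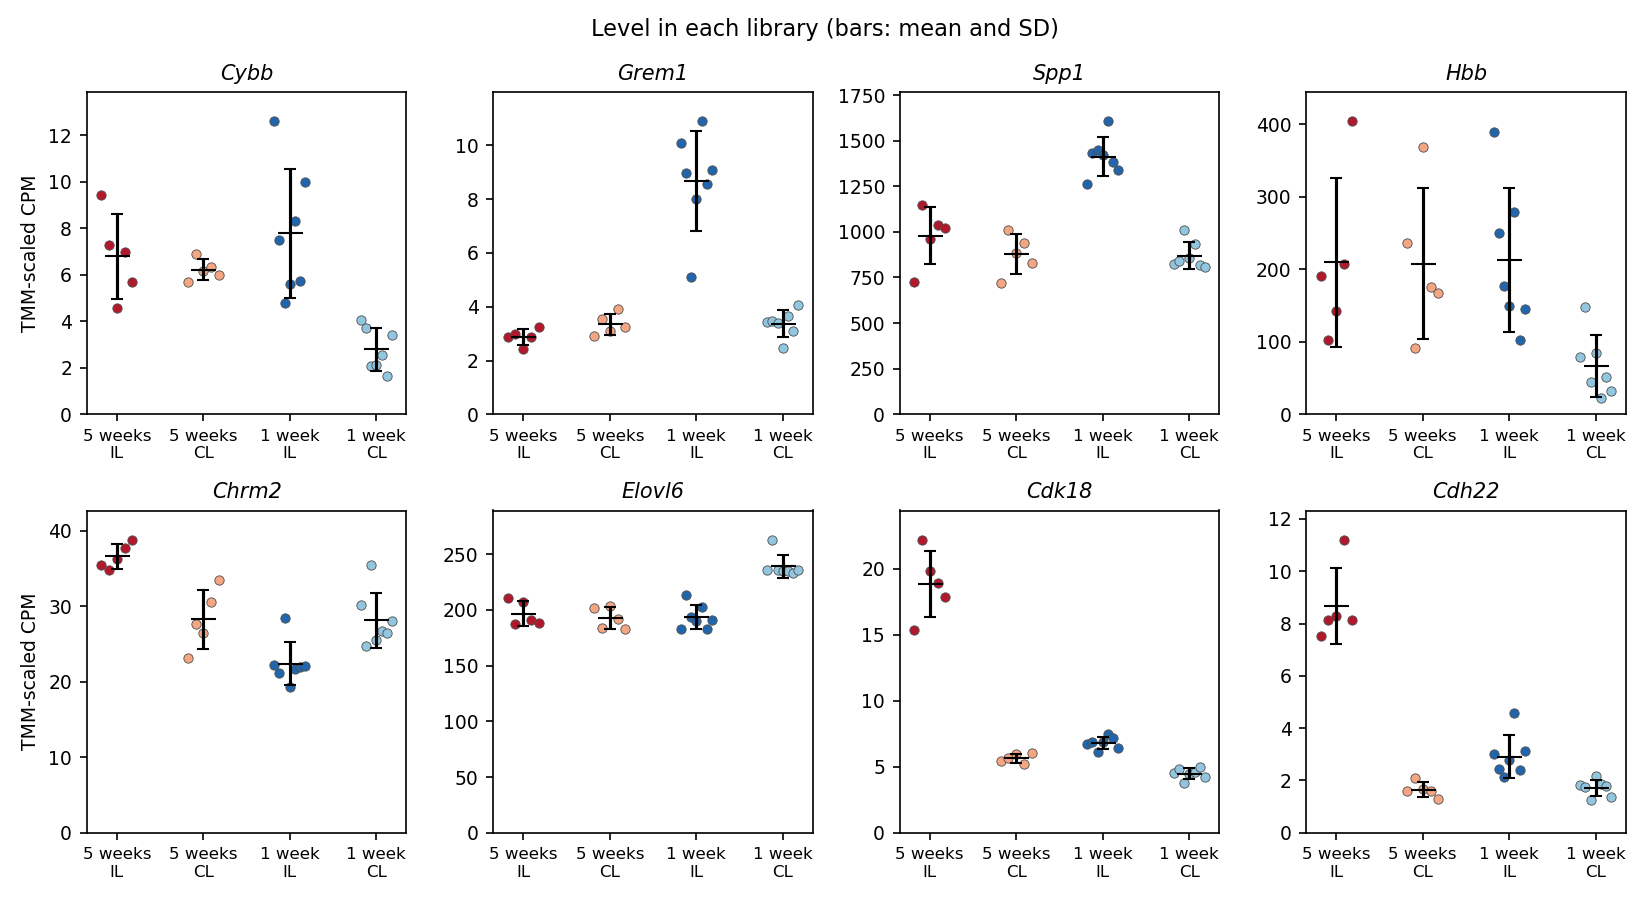
TMM-scaled CPM of 8 genes in each library, by week and side, with bars for the mean and SD. The CL ganglia at 1 week are low in Cybb and Hbb, whereas in Grem1 and Spp1 the IL ganglia at 1 week stand apart.

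A fall at 1 week was smaller or absent at 5 weeks for the following genes. Rasgrf1, a neuronal exchange factor for Ras, had responses of 0.08 at 5 weeks and -0.38 at 1 week and a shift of 0.46 (SE 0.0807, adjusted p = 0.00655). Rasgrf1 differed between sides by 0.08, 0.15, -0.17, 0.27 and 0.05 on the log2 scale in the 5 pairs at 5 weeks, and by -0.60 to -0.27 (median -0.35) in the 7 pairs at 1 week. For Rasgrf1 the side difference was higher in all 5 pairs at 5 weeks than in any pair at 1 week. Adamts20, a secreted metalloprotease, had responses of -0.06 at 5 weeks and -0.47 at 1 week and a shift of 0.41 (SE 0.0578, adjusted p = 0.00134). Its difference between weeks was 0.10 on the IL side, not called, and -0.31 on the CL side, called. Adamts20 differed between sides by 0.06, 0.01, -0.13, -0.19 and -0.03 on the log2 scale in the 5 pairs at 5 weeks, and by -0.59 to -0.37 (median -0.45) in the 7 pairs at 1 week. For Adamts20 the side difference was higher in all 5 pairs at 5 weeks than in any pair at 1 week. Omg, a myelin-associated inhibitor of neurite growth, was still lower at 5 weeks, with a response of -0.38 against -0.79 at 1 week and a shift of 0.40 (SE 0.0774, adjusted p = 0.0108). Csdc2, an RNA-binding protein, had a shift of 0.40 (SE 0.0760, adjusted p = 0.0109). Kcnj10, the inward rectifier potassium channel of satellite glia, had responses of -0.10 at 5 weeks and -0.35 at 1 week and a shift of 0.25 (SE 0.0494, adjusted p = 0.0112).

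Some genes of sterol and fatty acid synthesis, which supply membranes and myelin with lipid, shifted upward. Of 29 listed, 12 were higher and 3 lower at 5 weeks, against 9 higher and 15 lower at 1 week. A positive shift was called for 9, against 0.88% of all genes, with a median shift of 0.121. On the IL side the median difference between weeks was -0.0401, and on the CL side it was -0.16, with 16 genes called lower on the CL side, against 6.2% of all genes. No member was called without the pair block or with the hemoglobin covariate, 3 members were with the ribosomal RNA covariate, and 3 to 5 were without pair 1, 2, 4 or 7 of the 1 week libraries or pair 2, 3 or 4 of the 5 week ones.

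Elovl6, a fatty acid elongase (chromosome 2, 218063682 to 218174767) outside that list, had a shift that was called under all 20 alternatives. At 5 weeks Elovl6 had 211, 187, 207, 191 and 188 CPM in IL ganglia, against 202, 184, 204, 192 and 183 CPM in CL ganglia. At 1 week Elovl6 had 183 to 213 CPM (median 191) in IL ganglia, against 233 to 263 CPM (median 236) in CL ganglia. Elovl6 differed between sides by 0.06, 0.02, 0.02, -0.01 and 0.04 on the log2 scale in the 5 pairs at 5 weeks, and by -0.37 to -0.21 (median -0.30) in the 7 pairs at 1 week. For Elovl6 the side difference was higher in all 5 pairs at 5 weeks than in any pair at 1 week. Its shift was 0.33 (SE 0.0368, adjusted p = 1.62e-04). Cyp51, lanosterol demethylase, had a shift of 0.22 (SE 0.0422, adjusted p = 0.0112). Scd, the stearoyl-CoA desaturase, had responses of 0.15 at 5 weeks and -0.10 at 1 week and a shift of 0.26 (SE 0.0428, adjusted p = 0.0047). Tm7sf2, a sterol reductase, had a shift of 0.24 (SE 0.0535, adjusted p = 0.021), which was not called without pair 2 of the 5 week libraries (adjusted p = 0.0542). Nsdhl, a sterol dehydrogenase, had a shift of 0.19 (SE 0.0424, adjusted p = 0.0243), which was not called without pair 1 of the 1 week libraries (adjusted p = 0.0523).

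The promoters of 2 of these genes are shown because a CCAAT box, the site of the factor NF-Y, is common in promoters of sterol genes. They come from RefSeq (GRCr8), trimmed around the matches, with CCAAT or its reverse complement ATTGG in capitals. The Nsdhl stretch is chrX:155817122-155817329, plus strand, and the Tm7sf2 stretch is chr1:212789596-212789660, minus strand.
Nsdhl: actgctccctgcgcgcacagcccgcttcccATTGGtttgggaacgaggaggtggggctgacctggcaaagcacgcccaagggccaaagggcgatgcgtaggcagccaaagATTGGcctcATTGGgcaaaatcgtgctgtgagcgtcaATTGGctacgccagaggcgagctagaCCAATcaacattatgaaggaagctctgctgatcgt
Tm7sf2: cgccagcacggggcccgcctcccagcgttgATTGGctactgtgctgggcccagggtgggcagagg
Either form stood within the 250 bases before the start of 16 of 19 list members with a promoter (84.2%), against 34.9% of tested genes and 34.0% of all 33469 promoters. It stood in 4 of 7 members with a called shift and in 12 of 12 members without one.

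A smaller set of genes responded more strongly at 5 weeks. Cdk18, a cyclin-dependent kinase (chromosome 13, 43555597 to 43582210), had the smallest adjusted p for the shift among the genes named. At 5 weeks Cdk18 had 15.4, 22.2, 19.8, 18.9 and 17.9 CPM in IL ganglia, against 5.45, 5.64, 5.94, 5.18 and 6.01 CPM in CL ganglia. At 1 week Cdk18 had 6.13 to 7.47 CPM (median 6.85) in IL ganglia, against 3.74 to 4.98 CPM (median 4.55) in CL ganglia. Cdk18 differed between sides by 1.48, 1.96, 1.73, 1.85 and 1.57 on the log2 scale in the 5 pairs at 5 weeks, and by 0.51 to 0.70 (median 0.58) in the 7 pairs at 1 week. For Cdk18 the side difference was higher in all 5 pairs at 5 weeks than in any pair at 1 week. The response was 1.73 (SE 0.0720, adjusted p = 7.88e-12) at 5 weeks and 0.60 (SE 0.0636, adjusted p = 2.64e-07) at 1 week, with a shift of 1.13 (SE 0.0965, adjusted p = 1.58e-05). At 5 weeks Cpne9 had 20.7, 29.4, 27.4, 31 and 30.4 CPM in IL ganglia, against 7.97, 7.92, 9.10, 8.09 and 10.1 CPM in CL ganglia. At 1 week Cpne9 had 10.1 to 13.4 CPM (median 12.7) in IL ganglia, against 7.07 to 9.33 CPM (median 7.83) in CL ganglia. For Cpne9 the side difference was higher in all 5 pairs at 5 weeks than in any pair at 1 week. Cpne9, a calcium-dependent membrane-binding protein, had responses of 1.68 at 5 weeks and 0.61 at 1 week and a shift of 1.07 (SE 0.113, adjusted p = 7.84e-05). Cdh22 is a cadherin (chromosome 3, 153845563 to 153970630). At 5 weeks Cdh22 had 7.52, 8.15, 8.28, 11.2 and 8.12 CPM in IL ganglia, against 1.58, 2.11, 1.67, 1.59 and 1.30 CPM in CL ganglia. At 1 week Cdh22 had 2.12 to 4.56 CPM (median 2.78) in IL ganglia, against 1.25 to 2.18 CPM (median 1.79) in CL ganglia. Cdh22 differed between sides by 2.19, 1.91, 2.26, 2.76 and 2.57 on the log2 scale in the 5 pairs at 5 weeks, and by 0.34 to 1.26 (median 0.70) in the 7 pairs at 1 week. For Cdh22 the side difference was higher in all 5 pairs at 5 weeks than in any pair at 1 week. Its shift was 1.62 (SE 0.199, adjusted p = 4.72e-04), and between weeks it was 1.57 on the IL and -0.05 on the CL side.

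Of 52 sensory receptor and ligand-gated channel genes, 2 had a called higher shift and 1 a lower one (5.77% in all), with a median shift of -0.0586. Among 40 sensory neuron subtype markers 1 had a called shift in each direction (5% in all). Over all genes the shares were 0.88% higher and 1.74% lower, 2.62% in all. P2rx2, an ATP-gated channel, had responses of 1.44 at 5 weeks and 0.80 at 1 week and a shift of 0.64 (SE 0.135, adjusted p = 0.017). At 5 weeks P2rx2 had 12.9, 15.5, 14.3, 17.2 and 14.9 CPM in IL ganglia, against 4.80, 5.81, 6.36, 5.66 and 4.94 CPM in CL ganglia. At 1 week P2rx2 had 6.58 to 10.1 CPM (median 8.11) in IL ganglia, against 3.48 to 6.24 CPM (median 4.48) in CL ganglia. Pairs of P2rx2 from the 2 weeks overlapped. At 5 weeks Gfra3 had 90.5, 126, 136, 139.6 and 124 CPM in IL ganglia, against 53.9, 60.5, 67.4, 60.0 and 56.2 CPM in CL ganglia. At 1 week Gfra3 had 86.4 to 103 CPM (median 91.3) in IL ganglia, against 54.6 to 64.5 CPM (median 60.4) in CL ganglia. Pairs of Gfra3 from the 2 weeks overlapped. Gfra3, the co-receptor for artemin, had responses of 1.04 at 5 weeks and 0.62 at 1 week and a shift of 0.42 (SE 0.0780, adjusted p = 0.0108). Pde6b, a phosphodiesterase subunit known from photoreceptors, had a shift of 1.20 (SE 0.246, adjusted p = 0.0186). Hrk, a pro-apoptotic BH3-only protein, had a shift of 0.70 (SE 0.157, adjusted p = 0.0242) that was not called without pair 3 of the 5 week libraries (adjusted p = 0.0602). Nor was the Hrk shift called with the hemoglobin covariate (adjusted p = 0.236) or the ribosomal RNA covariate (adjusted p = 0.0611). Abcc9, a regulatory subunit of ATP-sensitive potassium channels, had a shift of 0.53 (SE 0.0992, adjusted p = 0.00993).

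For other grown rises only the CL side was called between weeks. Fst, follistatin, had a shift of 1.16 (SE 0.224, adjusted p = 0.0112), with -0.54 between weeks on the IL side and -1.69 on the CL side. Col5a3, a fibrillar collagen chain, had a shift of 0.25 (SE 0.0497, adjusted p = 0.0125), with -0.11 on the IL and -0.35 on the CL side. Of the falls that grew, Aars1, alanyl-tRNA synthetase, had responses of -0.31 at 5 weeks and -0.10 at 1 week and a shift of -0.20 (SE 0.0348, adjusted p = 0.00545). Creb3l1, a membrane-bound transcription factor, had a shift of -0.47 (SE 0.0916, adjusted p = 0.0112). Nat8f4, an acetyltransferase family member, had a shift of -0.65 (SE 0.139, adjusted p = 0.0186), which was not called without pair 2 (adjusted p = 0.0716) or pair 4 (adjusted p = 0.0513) of the 5 week libraries, nor by DESeq2 (adjusted p = 0.0896).

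Chrm2, a muscarinic acetylcholine receptor (chromosome 4, 65015408 to 65149104), was among the genes called in opposite directions. At 5 weeks Chrm2 had 35.4, 34.8, 36.3, 37.7 and 38.8 CPM in IL ganglia, against 23.2, 27.6, 26.4, 30.6 and 33.5 CPM in CL ganglia. At 1 week Chrm2 had 19.3 to 28.5 CPM (median 21.9) in IL ganglia, against 24.8 to 35.4 CPM (median 26.7) in CL ganglia. Chrm2 differed between sides by 0.61, 0.33, 0.46, 0.30 and 0.21 on the log2 scale in the 5 pairs at 5 weeks, and by -0.44 to -0.23 (median -0.31) in the 7 pairs at 1 week. For Chrm2 the side difference was higher in all 5 pairs at 5 weeks than in any pair at 1 week. The response was 0.38 (SE 0.0503, adjusted p = 8.64e-06) at 5 weeks and -0.33 (SE 0.0424, adjusted p = 3.06e-06) at 1 week, with a shift of 0.71 (SE 0.0658, adjusted p = 2.95e-05). Cplx2, a regulator of vesicle fusion, had responses of 0.11 at 5 weeks and -0.31 at 1 week and a shift of 0.42 (SE 0.0551, adjusted p = 7.02e-04). The Cplx2 response at 5 weeks was not called without pair 1 or pair 2 of the 5 week libraries. Scn2b, a sodium channel subunit, had a shift of 0.32 (SE 0.0489, adjusted p = 0.00252).

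In the other direction, Cd163, a scavenger receptor of resident macrophages, had responses of -1.02 (SE 0.181, adjusted p = 2.74e-04) at 5 weeks and 0.42 (SE 0.161, adjusted p = 0.0384) at 1 week. At 5 weeks Cd163 had 3.25, 4.10, 1.14, 6.24 and 4.93 CPM in IL ganglia, against 4.41, 9.38, 5.06, 12.5 and 7.54 CPM in CL ganglia. At 1 week Cd163 had 2.98 to 4.39 CPM (median 3.47) in IL ganglia, against 1.63 to 3.95 CPM (median 2.18) in CL ganglia. Between weeks Cd163 was 0.16 on the IL and 1.52 on the CL side, and its shift was -1.44 (SE 0.242, adjusted p = 0.00663). The response of Cd163 at 1 week was not called without pair 1, 4, 5, 6 or 7 of the 1 week libraries, and with the hemoglobin covariate it was -0.04 (adjusted p = 0.934). Hrh1, a histamine receptor, had a shift of -1.16 (SE 0.205, adjusted p = 0.00663). Cyp26b1, a retinoic acid hydroxylase, had a shift of -0.89 (SE 0.140, adjusted p = 0.00297), and its response at 1 week was not called without pair 2 of that week. Its difference between weeks was -0.11 on the IL side, not called, and 0.77 on the CL side, called. Of 16 satellite glia genes, 2 had a called shift in each direction, against 0.88% of all genes higher and 1.74% lower. Glul, glutamine synthetase, had responses of -0.17 at 5 weeks and 0.14 at 1 week and a shift of -0.32 (SE 0.0432, adjusted p = 0.00105). From 1 to 5 weeks Glul differed by 0.03 on the IL side, which was not called, and by 0.35 on the CL side, which was called.

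**Figure D3:**
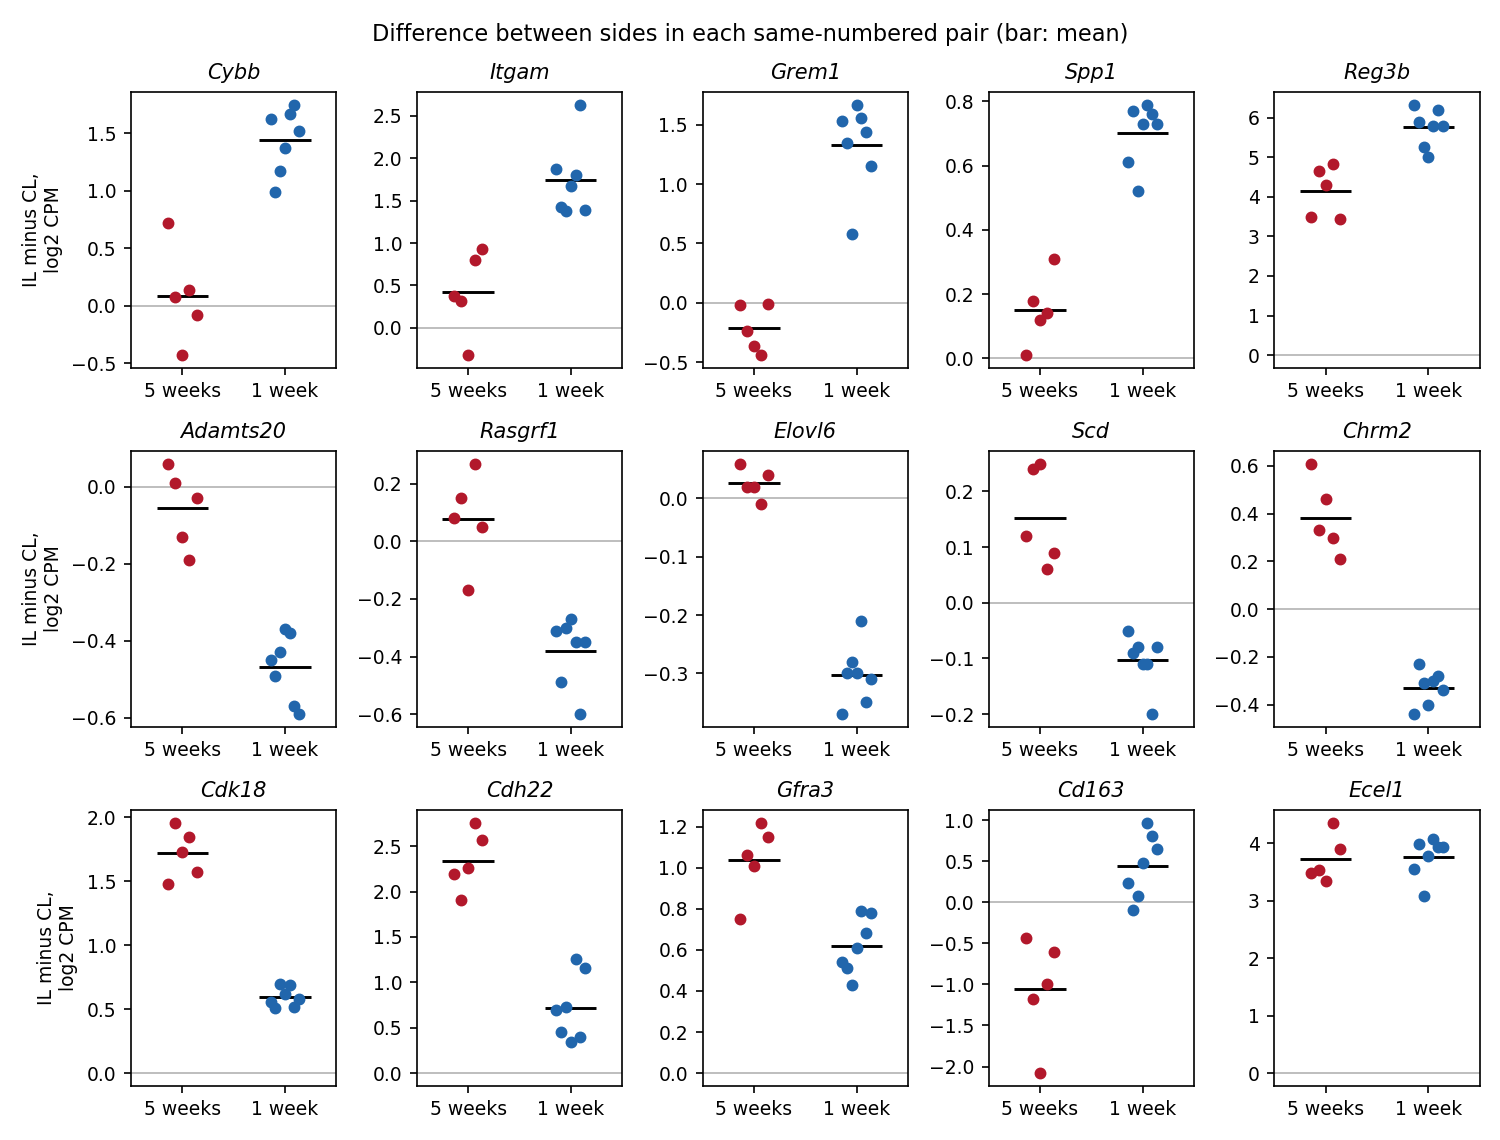
IL minus CL difference on the log2 CPM scale in each same-numbered pair for 15 genes, 5 pairs at 5 weeks left of 7 pairs at 1 week, with bars for the mean. Cdk18 and Cdh22 are higher in every 5 week pair, Grem1 and Cybb are lower, and Ecel1 overlaps between weeks.

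**Figure D4:**
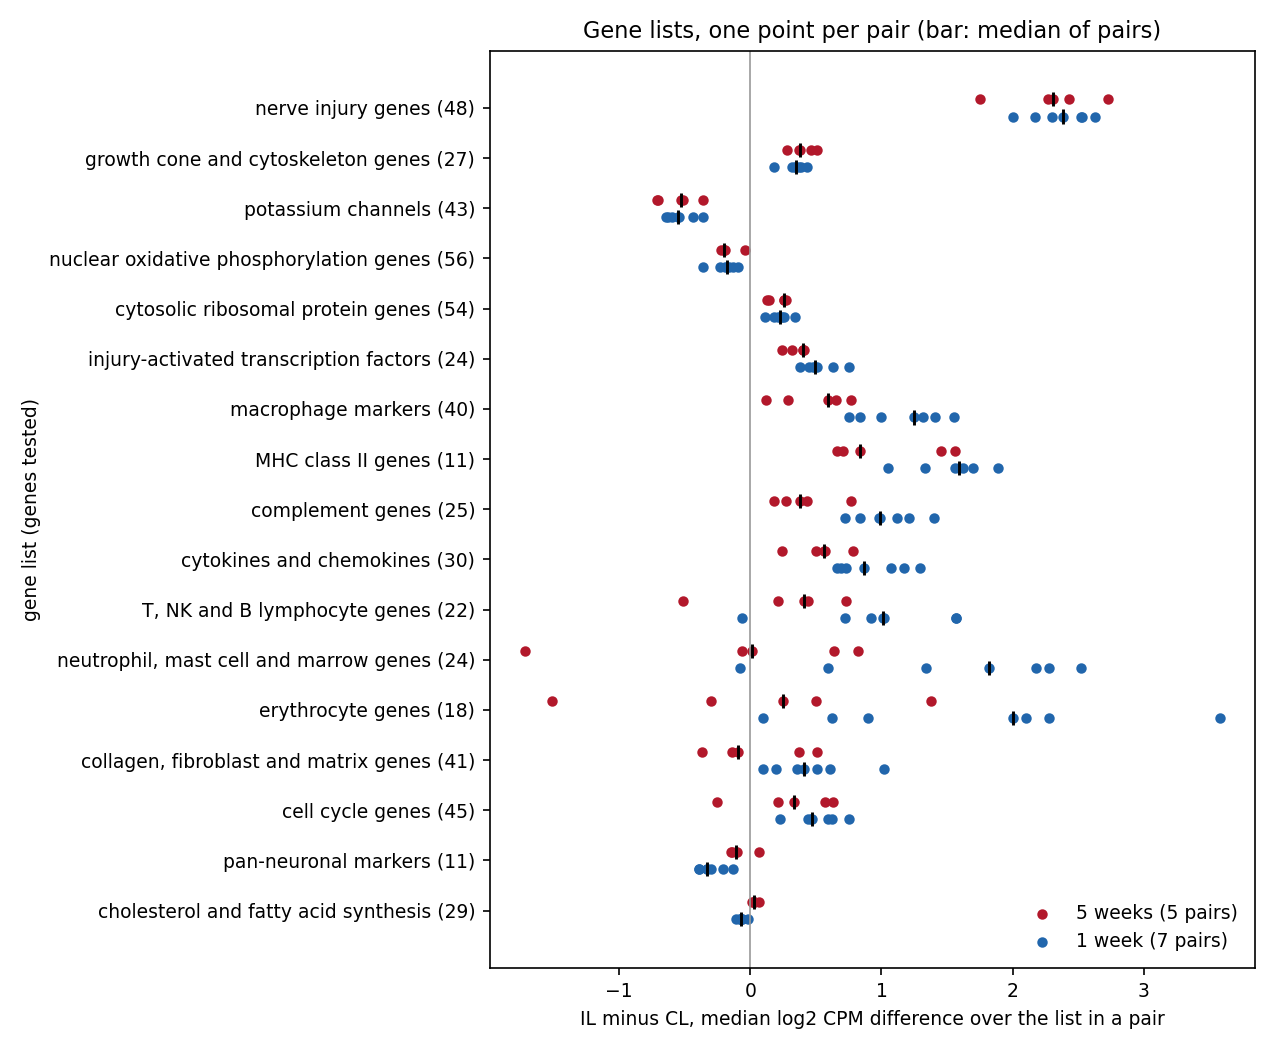
Median IL minus CL difference over the tested genes of each list in each pair, with 5 week pairs above 1 week pairs. The nerve injury, growth cone and potassium channel lists overlap between weeks, and the erythrocyte list spans -1.51 to 1.38 at 5 weeks and 0.10 to 3.58 at 1 week.

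The shift can come from either ganglion. An unpaired fit called 2739 genes (14.4%, 7.66% higher and 6.78% lower) between 5 weeks and 1 week on the IL side and 2569 (13.5%, 7.34% higher and 6.2% lower) on the CL side. Age and day of harvest go with the week and cannot be told apart from it. Of the 497 called shifts, 199 were also called on the IL side in the same direction and 133 on the CL side in the opposite one. Rises that faded had a median difference of -0.277 on the IL and 0.24 on the CL side. Rises that grew had 0.296 on the IL and -0.0529 on the CL side.

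**Figure D5:**
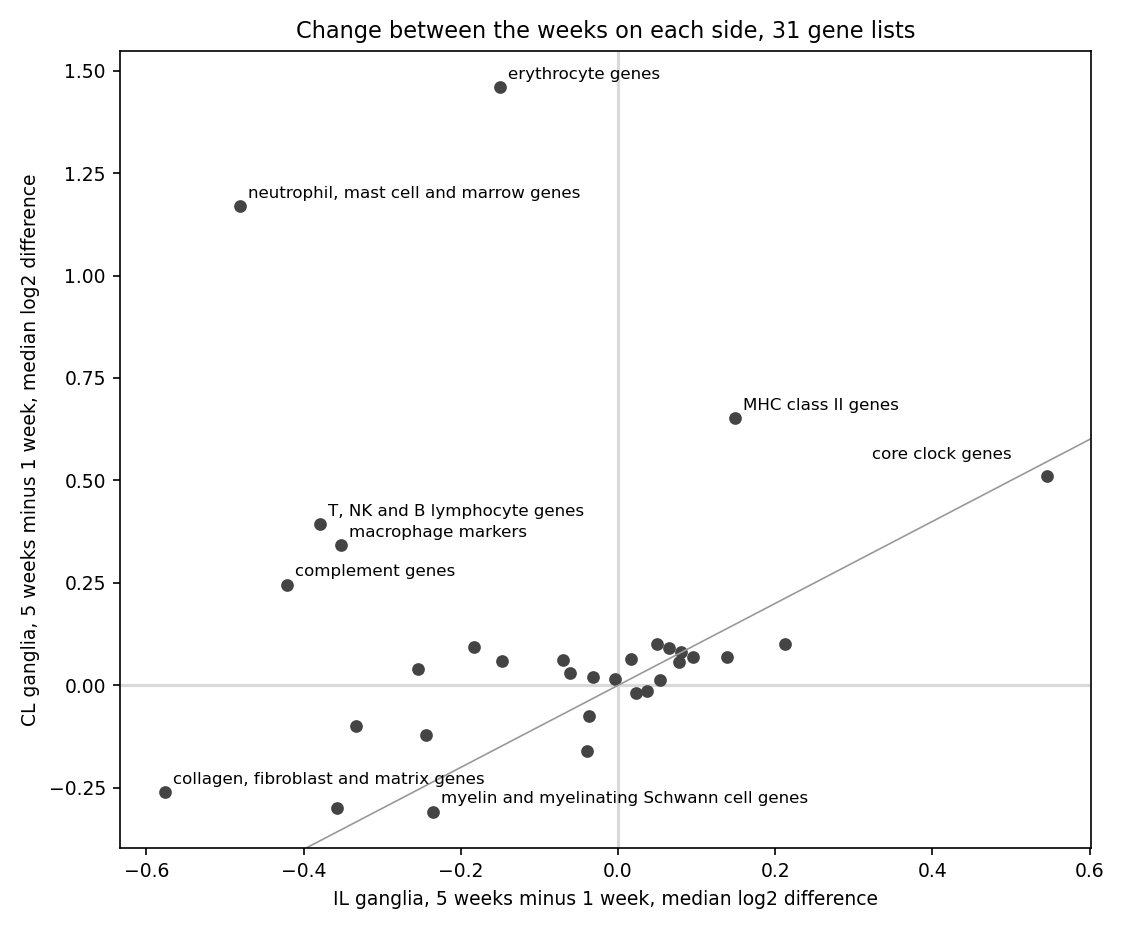
Median log2 difference between 5 weeks and 1 week of each gene list in IL ganglia (horizontal) and CL ganglia (vertical), with the diagonal marking equal differences. Erythrocyte genes (-0.15 in IL, 1.46 in CL) lie far above the diagonal, and core clock genes (0.546 in IL, 0.511 in CL) lie close to it.

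The shift in males was set against that in 26 female libraries of the same weeks. Of 19100 genes, 2108 (11%) differed between the sexes in their shift, 851 higher (4.46%) and 1257 lower (6.58%) in males. Males and females are in separate count tables, so sex and table cannot be told apart. Of genes with a shift called under all 20 alternatives, Grem1, Cdk18, Cdh22, Chrm2, Elovl6 and Aars1 had female shifts called in the same direction. Their sex differences were not called. Male and female shifts were -1.54 and -1.32 for Grem1, 1.15 and 0.9 for Cdk18, and 1.65 and 1.12 for Cdh22. They were 0.73 and 0.89 for Chrm2, 0.35 and 0.27 for Elovl6, and -0.18 and -0.19 for Aars1. Cpne9, the remaining such gene, had a called difference (0.73) and no called female shift. The shift of Cybb was -1.34 in males and 0.42 in females, a difference of -1.77 (SE 0.353, adjusted p = 0.00128). Hrh1 had a shift of -1.14 in males and 0.42 in females, a difference of -1.56 (SE 0.277, adjusted p = 2.71e-04). The mu opioid receptor gene Oprm1 had a shift of -0.15 in males and 3.77 in females, a difference of -3.91 (SE 0.263, adjusted p = 1.03e-11). Of 41 collagen, fibroblast and matrix genes, 25 had a lower shift in males, with medians of -0.256 in males and 0.902 in females.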

How the data were processed

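Libraries were made from poly-A RNA of L4 DRG, per the labels' protocols, and the submitters' processing notes list, with no settings, the counter featureCounts 1.6.4, the aligner STAR 2.7.2b, the build mRatBN7.2, the trimmer cutadapt 2.5 and bcl2fastq 2.20.0.422. The authors deposited estimated counts per gene, not normalized, with fractions for shared reads. They were rounded to whole counts, which changed no library total by more than 0.0014%. A library held 18881575 to 33495439 counts.

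The 24 male libraries were fitted with edgeR 4.0.16 (quasi-likelihood, robust, TMM scaling, filterByExpr with a minimum count of 10), with the replicate number within week as a block. The standard error is the log2 fold change over the root of F. CPM are TMM-scaled, and pair differences use log2 CPM with a prior count of 2. Same-numbered sides were taken as pairs since the comparison is defined so: in 12 of 12 pairs the deviations from the group means correlated (0.197 to 0.47, median 0.316) and were most alike within the number. The comparison of weeks used no block, and the male and female shifts used a joint fit. The scripts were tested on simulated data.

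Alternatives were no block, RLE scaling, DESeq2 1.42.0, limma-voom (limma 3.58.1), other filters, hemoglobin and ribosomal RNA shares as covariates, and leaving out each pair. Genes were named by a rule: label checks, the 8 largest shifts per class with a mean log2 CPM of at least 1, the 8 largest held responses in each direction, the 4 smallest p per gene list and the 6 smallest p of the sex difference in each direction. Many of them are left out of the text, and some genes are not reported here. Chrm2 and Elovl6 lie outside the rule and were chosen after their values were seen. Members and lists were chosen with earlier results of these data known. Promoters came from RefSeq.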

Additional observations from a re-analysis of the deposited data

Results flagged for a closer look

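A pair of libraries stood apart from the others of its week for 7 of 128 groups of pair differences examined, and chance flags about 1 in 20. In pair 1 at 5 weeks the IL minus CL difference of Atf3 was 3.60 on the log2 scale and that of Csf1 was 1.32, both the lowest of 5 pairs. In pair 3 at 1 week the fall of Kcns1 was -0.71, the smallest of 7 pairs. In pair 6 at 1 week the differences of Itgam (2.63) and C5ar1 (1.47) were the highest of 7 pairs and that of Scd (-0.20) the lowest. In pair 1 at 1 week the difference of Cplx2 was -0.45, the lowest of 7 pairs.

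The shift of 19 genes named here or by the sex rule differed between males and females in the joint edgeR fit, with sex tied to the count table. Among genes of leukocytes, the male minus female difference of the shift was -1.77 for Cybb, -1.44 for Cd163, -1.31 for Sla, -1.21 for C5ar1 and -1.10 for Itgam. The difference was -1.56 for Hrh1, -0.96 for Cyp26b1 and -0.25 for Glul. Of the rises that grew in males, the difference was 0.73 for Cpne9, 0.41 for Gfra3 and 1.12 for Pde6b. Of the falls that grew, it was -0.84 for Creb3l1 and -0.99 for Nat8f4. For Sox11 it was 0.87. Without single 5 week male pairs, the difference was not called in 3 of 5 fits for Cd163, 2 of 5 for Cpne9 and Itgam, 4 of 5 for Gfra3 and Sox11, and 5 of 5 for Pde6b. When the replicate block was dropped, 12 of the 19 differences were no longer called.

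Among the smallest p-values of the sex difference, Oprm1, the mu opioid receptor, differed by -3.91, with shifts of -0.15 in males and 3.77 in females. Gucy1a2, a guanylate cyclase subunit, differed by -2.14 and Unc80, a sodium leak channel subunit, by -1.50. Pcgf1, a Polycomb protein, differed by 1.08 and Lgi4, a secreted glial protein, by 0.55. The male shift of none of these 5 genes was larger than 0.25 in size, so the difference lay mainly in the female libraries.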

How the results depend on the processing

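Each count was recomputed under no replicate block, RLE scaling, DESeq2, limma-voom, 2 other filters, 2 covariates and without each pair, and the causes of the differences were not tested. Without the replicate block, 40 shifts were called (15 higher, 25 lower), with 20 faded rises, 1 faded fall, 8 grown rises, 2 grown falls and 15 reversed genes, and 1130 genes differed between the sexes. With the hemoglobin share as a covariate, 63 shifts were called (29 higher, 34 lower), with 21 faded rises, 5 faded falls, 17 grown rises, 7 grown falls, 16 reversed, 4077 kept and 3285 held genes, and the response at 1 week was called for 5026 genes (2564 higher, 2462 lower). Under that covariate the Cd163 response at 1 week was -0.04 and the Hbb response at 5 weeks was -0.13 (edgeR adjusted p = 0.0254). Hbb is itself counted in the hemoglobin share, so this Hbb value cannot show whether blood RNA differed between the sides. With the ribosomal RNA share, 101 shifts were called higher, with 50 faded falls, 30 grown rises and 14 grown falls. Without each pair in turn, the called shifts numbered 218 to 679 (90 to 343 higher, 128 to 336 lower), faded rises 106 to 293, faded falls 30 to 226, grown rises 41 to 98, grown falls 7 to 36 and reversed genes 37 to 69. The kept genes numbered 5463 to 6269, the held ones 5427 at most and 4654 at least, and the responses 6531 to 7913 at 5 weeks and 9333 to 10339 at 1 week. The weeks differed for 2065 to 3204 genes on the IL side and 1712 to 2565 on the CL side, the lowest without number 5 of the 5 week libraries. The sexes differed for 1625 to 2355 genes. Of 44 examined genes with a called shift, 7 were called in all 20 alternatives: Grem1, Elovl6, Cdk18, Cpne9, Cdh22, Aars1 and Chrm2. Beyond these, only Stat3, Sla and Ccl2 were still called without the replicate block. With the hemoglobin covariate, those still called beyond the 7 were Cybb, Spp1, Rasgrf1, Adamts20, Pde6b, P2rx2, Gfra3, Abcc9, Cyp26b1, Cplx2, Scn2b and Glul. Of the 44, those no longer called with the ribosomal RNA covariate were Hrk, Tm7sf2 and Nat8f4. Depth limits genes near 0 counts in CL ganglia, such as Cldn4 and Sprr1a.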

Other observations

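Of 45 cell cycle genes, which mark dividing cells, 17 were higher and 1 lower on the injured side at 5 weeks, against 37 higher and 1 lower at 1 week, with no called shift by edgeR's quasi-likelihood test. Over all genes, 19.1% were higher and 21.9% lower at 5 weeks, against 27.3% higher and 26.6% lower at 1 week. Of 38 interferon response and MHC class I genes, 12 were higher and 1 lower at 5 weeks, against 25 higher and 1 lower at 1 week, also with no called shift. Of 23 myelin and myelinating Schwann cell genes, 3 were higher and 4 lower at 5 weeks, against 1 higher and 14 lower at 1 week, with 1 called shift (4.35%, against 2.62% of all genes). The myelin shares at 5 weeks were thus below those of all genes in both directions. Between weeks, 13 of these 23 were called lower on the CL side and 6 on the IL side, against 6.2% and 6.78% of all genes.

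Some lists differed between weeks on both sides of the body. Of 19 core clock genes, 11 were higher and 5 lower at 5 weeks on the IL side, and 13 were higher and 4 lower on the CL side, and no shift was called. Over all genes, 7.66% were higher and 6.78% lower on the IL side, and 7.34% and 6.2% on the CL side. The hour of harvest is not given in the sources used here.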
